A study of Mus musculus with 74 samples.

Results

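Kmt2a and Kmt2b are the paralogous members of the mixed-lineage leukaemia family of histone methyltransferases that were targeted in a pool of paired guide RNAs delivered to mouse lung. Both encode large enzymes whose SET domain, held in a complex with WDR5 and its partners, methylates lysine 4 of histone H3, and both bind the scaffold protein Menin. KMT2A is best known from leukaemias in which it is fused to other proteins and for keeping HOX genes active, whereas KMT2B is known for trimethylation of promoters in early development and germ cells. Tumours were taken where either guide of a construct was against Kmt2a or Kmt2b, except 40 tumours with the same such guide in both places and 665 with the guide named NE, whose nature the labels do not give. That left 16255 tumours of the 378754 in the deposited table, of which 8857 carried a Kmt2a guide and 7634 a Kmt2b guide.

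Each tumour stood in the table with its mouse, its guides, its sequencing reads and its estimated number of cells. Lungs from 74 mice, collected about 3 months after a lentiviral pool carrying Cre, a tumour barcode and both guides was given, were sequenced as 1 amplicon library per mouse. All mice carried the background that the labels call KT, which includes a Tomato reporter switched on by Cre. Of them 9 KT mice had no Cas9, so their tumour numbers show how often each construct was present in the pool. The other groups were 45 mice with H11-Cas9 and 20 with H11-LSL-Cas9, where a stop cassette precedes Cas9. The growth protocol in the labels spells both Cas9 alleles with LSL, and the groups here follow the genotype given for each mouse. The labels give no viral dose, age or sex. Nothing in the table measures the edits, the histone mark or the expression of either gene, so a targeted tumour means only one that carried the guide.

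A KT mouse held 13191 to 41166 tumours, an H11-Cas9 mouse 1013 to 5364 and an H11-LSL-Cas9 mouse 4 to 4941, with a median of 4.82, 7.96 and 12.9 cells behind 1 read. Each member had 1 guide, used in both places, so no second guide of the same gene stands beside it. The controls were inert/inert tumours, with guides named safe, NT or EGFP in both places, of which KT mice held 1466, H11-Cas9 mice 1107 and H11-LSL-Cas9 mice 400. Mice also differed in the cell total assigned to their spike-ins, near 100000 cells in 5 KT and 25 H11-Cas9 mice and near 300000 in the other 4 KT mice, 20 of H11-Cas9 and all 20 of H11-LSL-Cas9, and this total was treated as a batch. The letters that begin mouse names (SL, LA, CM, HC or MT) followed group and spike-in total closely: only LA mice near 300000 cells, 4 KT and 14 H11-Cas9, shared both across groups, and no letters were shared between H11-LSL-Cas9 and KT, so for that group the letters and the genotype cannot be told apart.

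Tumours with a Kmt2b guide, beside any other guide, made up a smaller share of all tumours in Cas9 mice, whereas no change was detected for Kmt2a. In KT mice a Kmt2b guide was present in 2.52% to 2.95% of the tumours of a mouse (median 2.67%, 9 mice). In H11-Cas9 mice it was present in 0.852% to 2.29% (median 1.47%, 45 mice). All 45 H11-Cas9 mice lay below the lowest KT mouse, so these groups did not overlap. Overlap for genes other than Kmt2a and Kmt2b is not given here, so the separation is not shown to be particular to Kmt2b. In H11-LSL-Cas9 mice the share was 1.56% to 2.76% (median 2.07%, the 18 mice with at least 20 tumours), and 16 of 18 lay below the lowest KT mouse. Over summed tumours the share changed by -0.84 ± 0.06 on the log2 scale in H11-Cas9 (0.560-fold, ± SE, 1619 tumours against 5065 in KT, studentised permutation of mouse labels with Benjamini-Hochberg adjustment over 17 genes, adjusted p = 1.55e-05). It changed by -0.36 ± 0.06 in H11-LSL-Cas9 (0.782-fold, 950 tumours, permutation, adjusted p = 0.00125). Of the 17 genes, 47.1% fell and 47.1% rose by this measure in H11-Cas9, and 29.4% fell and 41.2% rose in H11-LSL-Cas9, so passing the test was common. Lkb1 (-0.91 ± 0.04) and Pcna (-3.69 ± 0.12) fell further than Kmt2b in H11-Cas9.

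A Kmt2a guide was carried by 2.20% to 2.71% of tumours in KT mice (median 2.59%), 1.84% to 3.43% in H11-Cas9 mice (median 2.66%) and 2.14% to 3.05% in H11-LSL-Cas9 mice (median 2.60%). The 3 ranges overlapped throughout. The log2 change was 0.06 ± 0.04 for H11-Cas9 mice and 0.07 ± 0.05 for H11-LSL-Cas9 mice (permutation, adjusted p = 0.155 and 0.338). Set directly against each other, Kmt2b tumours numbered 1.06 per Kmt2a tumour in KT, 0.566 for H11-Cas9 mice and 0.789 for H11-LSL-Cas9 mice, and the log2 ratio differed from that of KT by -0.90 ± 0.07 (permutation p = 1e-05, which is the smallest attainable) and by -0.42 ± 0.05 (permutation p = 0.00077). Such shares are relative to all other tumours, so a rise with other guides lowers them, and leave out tumours with NE or the same guide in both places. This measure was added after the data had been seen.

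**Figure D1:**
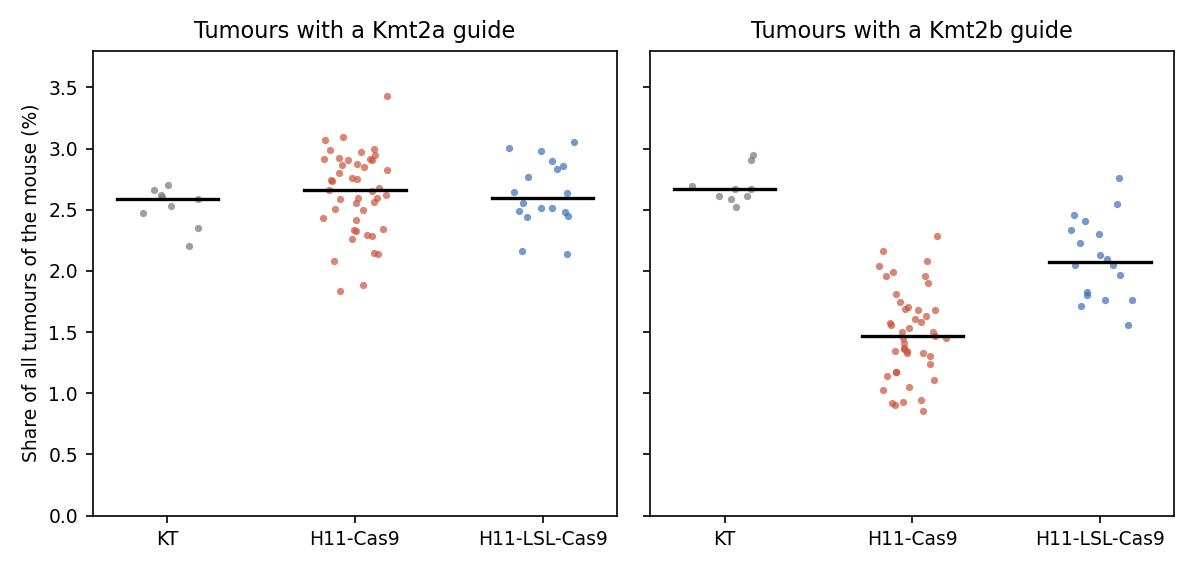
Share of the tumours of each mouse that carried a Kmt2a guide (left) or a Kmt2b guide (right), in percent, by group, for mice with at least 20 tumours. Points are mice, spread sideways for visibility, and bars are medians. For Kmt2b all H11-Cas9 mice lie below the lowest KT mouse at 2.52%, and for Kmt2a the 3 groups overlap.

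Within each spike-in total the Kmt2b share stood apart in the same way. Near 100000 cells it was 2.52% to 2.95% in 5 KT mice and 0.852% to 2.29% in 25 H11-Cas9 mice, a change of -0.99 (permutation, adjusted p = 0.000305). Near 300000 cells it was 2.59% to 2.91% in 4 KT mice, 1.11% to 2.17% in 20 H11-Cas9 mice (-0.70, permutation, adjusted p = 0.000145) and 1.56% to 2.76% in 18 H11-LSL-Cas9 mice (-0.35, permutation, adjusted p = 0.044). Counting only tumours of at least 1000 cells, the share changed by -1.24 in H11-Cas9 (permutation, adjusted p = 0.00017) and by -0.45 in H11-LSL-Cas9 (permutation, adjusted p = 0.136). The fall was smaller in H11-LSL-Cas9 than in H11-Cas9: the share was 0.48 ± 0.07 log2 units higher there (permutation over mice of both Cas9 groups, adjusted p = 1.55e-05), and 0.35 ± 0.08 higher among the 20 and 20 mice near 300000 cells (permutation, adjusted p = 0.000232). By this comparison of the Cas9 groups 47.1% of the 17 genes were higher and 35.3% lower in H11-LSL-Cas9. No difference between the Cas9 groups was detected for Kmt2a (0.00 ± 0.05, permutation, adjusted p = 0.971).

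Beside an inert guide, which leaves 1 gene of the panel targeted, Kmt2b tumours fell in number in both Cas9 groups and no change was detected for Kmt2a. Tumours of this kind numbered 616 for Kmt2a and 687 for Kmt2b in KT. They numbered 424 and 251 in H11-Cas9, and 158 and 123 in H11-LSL-Cas9. Per 100 inert/inert tumours, KT mice held 38.1 to 60.5 Kmt2b tumours (median 46.4), H11-Cas9 mice 3.33 to 47.1 (median 23.3) and H11-LSL-Cas9 mice 11.8 to 83.3 (median 27.3, 17 mice with at least 5 inert/inert tumours). The groups overlapped here, where an H11-Cas9 mouse held a median of 24 inert/inert tumours and a KT mouse 136. Summed over mice, Kmt2b tumours fell by 1.05 ± 0.10 on the log2 scale in H11-Cas9, to 0.484-fold (permutation, adjusted p = 3.4e-05), and by 0.60 ± 0.18 in H11-LSL-Cas9, to 0.658-fold (permutation, adjusted p = 0.0123). In H11-Cas9 47.1% of the 17 genes fell in this way and 70.6% passed in either direction, and in H11-LSL-Cas9 29.4% fell. The smallest tumour listed in an H11-Cas9 mouse had 50.1 to 105 cells, and fewer tumours and more tumours below that size cannot be told apart.

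Kmt2a tumours numbered 33.1 to 52.3 per 100 inert/inert tumours in KT mice (median 44.8), 20 to 79.3 in H11-Cas9 mice (median 35.7) and 11.1 to 77.8 in H11-LSL-Cas9 mice (median 40.4), overlapping in full. Their changes, -0.13 ± 0.11 and -0.09 ± 0.14, did not pass (permutation, adjusted p = 0.371 and 0.666). Kmt2b fell further than Kmt2a in H11-Cas9 (-0.91 ± 0.13, permutation, adjusted p = 0.0017 over the 5 comparisons made between the paralogs), but the difference did not pass in H11-LSL-Cas9 (-0.52 ± 0.19, permutation, adjusted p = 0.112). In H11-Cas9 this difference was -1.04 near 100000 cells (permutation, adjusted p = 0.0354), and near 300000 cells it was -0.79 and did not pass (permutation, adjusted p = 0.119). Between the Cas9 groups, Kmt2b in H11-LSL-Cas9 minus H11-Cas9 was 0.44 ± 0.19 in number beside an inert guide and did not pass (permutation, adjusted p = 0.0669, where 29.4% of the 17 genes passed as higher). The fall of Kmt2b beside an inert guide kept its call within each spike-in total in H11-Cas9 (-1.27 near 100000 cells and -0.83 near 300000, permutation, adjusted p = 0.000668 and 0.011). In H11-LSL-Cas9 it was -0.57 against the 4 KT mice near 300000 cells and did not pass (permutation, adjusted p = 0.251). Among tumours of at least 500 or 1000 cells, of which there were fewer, Kmt2b in H11-Cas9 lay at -0.84 and -0.55 against inert/inert and did not pass (permutation, adjusted p = 0.227 and 0.420). In H11-LSL-Cas9 the value was -0.22 at 500 cells and 0.68, above 0, at 1000 cells (permutation, adjusted p = 0.738 and 0.864).

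**Figure D2:**
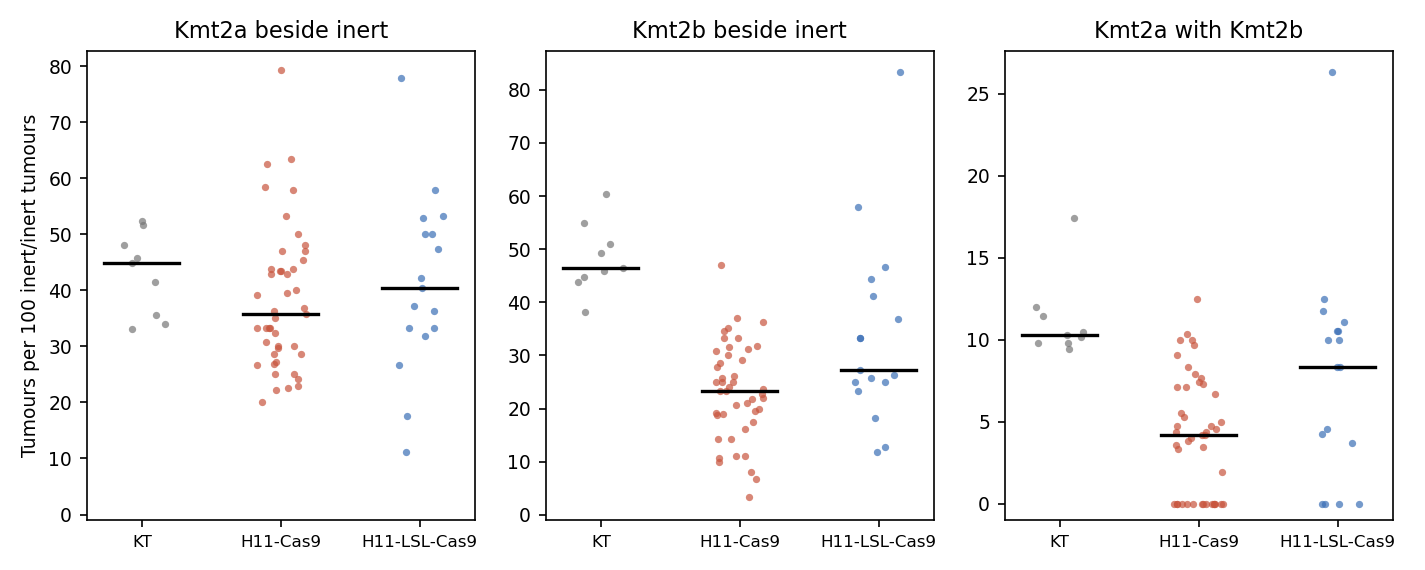
Tumours per 100 inert/inert tumours in each mouse, for Kmt2a beside an inert guide (left), Kmt2b beside an inert guide (middle) and both genes together (right), each panel with its own axis. Points are mice with at least 5 inert/inert tumours and bars are medians: for Kmt2b they are 46.4 for KT, 23.3 for H11-Cas9 mice and 27.3 for H11-LSL-Cas9 mice.

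With Kmt2b in place 1 there were 120 tumours in H11-Cas9 and 406 in KT, and in place 2 there were 131 and 281. The difference between places, -0.66 ± 0.22, did not pass (permutation p = 0.0217, adjusted p = 0.195 over 10 comparisons of place). By inert guide, the log2 change of Kmt2b in H11-Cas9 was -1.29 ± 0.17 and -0.63 ± 0.19 beside the most used of them, safe_V1, in place 1 and 2, and it lay below 0 for all 10 constructs, though 6 of these held under 10 tumours there. For Kmt2a the same 10 constructs ran from -0.82 ± 0.71 to 0.51 ± 0.50, with 6 above 0.

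No such contrast was detected in tumour size beside an inert guide. In each mouse the mean log2 cells of inert/inert tumours was subtracted from that of the genotype, with at least 5 tumours of each. In KT, Kmt2b tumours differed from inert/inert by 0.06 ± 0.13 (9 mice, from -0.70 to 0.73). The difference was -0.00 ± 0.12 in H11-Cas9 (29 mice, from -1.05 to 1.75) and 0.39 ± 0.16 in H11-LSL-Cas9 (13 mice, from -0.71 to 1.17). The last was above 0 in 9 of 13 mice and did not pass (exact sign-flip permutation, p = 0.0381, adjusted p = 0.216). Kmt2a tumours differed by 0.14 ± 0.10 in KT (8 of 9 mice above 0), 0.08 ± 0.07 in H11-Cas9 (24 of 41) and 0.12 ± 0.16 in H11-LSL-Cas9 (5 of 14), with no adjusted p below 0.298 (sign-flip permutation). In H11-Cas9 64.7% of the 17 genes passed as larger and 5.88% as smaller, neither paralog among them. Within mice, Kmt2b minus Kmt2a tumours gave -0.07 ± 0.09 in KT, -0.11 ± 0.15 in H11-Cas9 mice and 0.22 ± 0.16 in H11-LSL-Cas9 mice (sign-flip permutation, adjusted p at least 0.312). The size of Kmt2b tumours in H11-LSL-Cas9 minus H11-Cas9 was 0.39 ± 0.20 and did not pass (permutation, adjusted p = 0.147, where 11.8% of the 17 genes passed as lower).

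Means over all listed tumours depend on which tumours reach the table. When instead the largest tumours were compared, as many as the KT numbers give for 50% of the inert/inert tumours, Kmt2b tumours differed by -0.83 in H11-Cas9 (permutation, adjusted p = 0.0004) and lay at -0.44 in H11-LSL-Cas9 (permutation, adjusted p = 0.207). That setting counts the fall in number into size by its construction. With it Kmt2a lay at -0.14 in both Cas9 groups and did not pass.

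Tumours of at least 1000 cells were present with either guide. In H11-LSL-Cas9 19 of 158 Kmt2a tumours (12%, exact 95% binomial interval 7.40% to 18.1%, in 11 mice) and 16 of 123 Kmt2b tumours (13%, 7.62% to 20.3%, in 9 mice) were that large, against 19 of 400 inert/inert tumours (4.75%, 2.88% to 7.32%, in 10 mice). In H11-Cas9 the shares were 6.84% for Kmt2a, 8.76% for Kmt2b and 5.60% for inert/inert, and in KT 19.3%, 19.2% and 17.1%. The intervals cover counting error only and treat tumours of 1 mouse as independent, and no test across mice was made of these shares. The smallest tumour listed in an H11-LSL-Cas9 mouse had 50.4 to 369 cells, and the summed shares mix these mice. Replicate 11, with a smallest tumour of 155 cells, held 10 of the Kmt2b tumours and 12 of the inert/inert tumours. How far this moves the shares was not tested. The largest Kmt2a tumour beside an inert guide had 184947 cells, in H11-LSL-Cas9 replicate 17, and the largest Kmt2b tumour had 9197, in H11-Cas9 replicate 14.

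**Figure D3:**
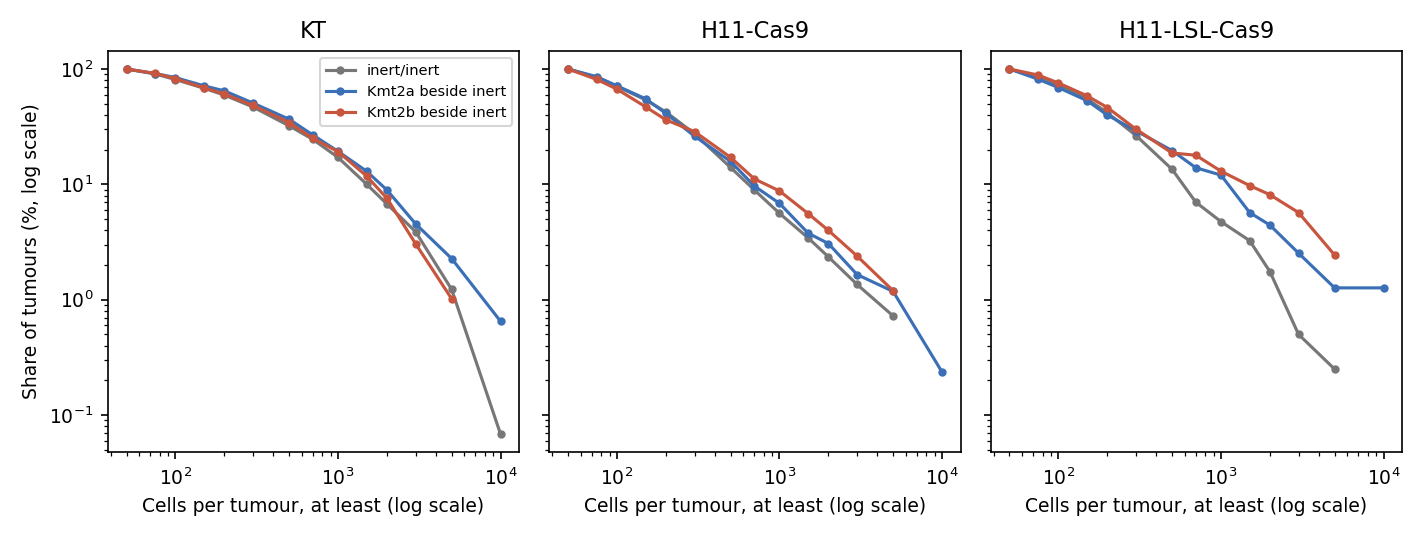
Share of tumours (percent, log scale) with at least the number of cells on the horizontal axis (log scale), summed over the mice of each group, for inert/inert tumours and for Kmt2a or Kmt2b beside an inert guide. In KT the curves run close together up to 1000 cells and spread at the largest sizes. In H11-Cas9 that of Kmt2b lies below inert/inert at 200 cells (36.3% against 42.5%) and above it at 2000 cells (3.98% against 2.35%). In H11-LSL-Cas9 that of Kmt2b lies above inert/inert from 75 cells (88.6% against 85.25%). That of Kmt2a does so from 300 cells (29.1% against 26.5%). For 1000 cells Kmt2a, Kmt2b and inert/inert lie at 12%, 13% and 4.75%. Mice of H11-LSL-Cas9 differ in their smallest listed tumour, from 50.4 to 369 cells. Sizes reached by no tumour are not drawn.

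Tumours with both genes targeted were few: 158 in KT, 49 in H11-Cas9 mice and 29 in H11-LSL-Cas9 mice. Per 100 inert/inert tumours a KT mouse held 9.47 to 17.4 (median 10.3) and an H11-Cas9 mouse 0 to 12.5 (median 4.17), with 15 of 45 H11-Cas9 mice at 0. H11-LSL-Cas9 mice held 0 to 26.3 (median 8.33, 17 mice, 4 at 0). The pair fell by 1.27 ± 0.19 in H11-Cas9 (0.414-fold, permutation, adjusted p = 3.66e-05 over 128 pairs, of which 60.9% fell) and lay at -0.55 ± 0.29 in H11-LSL-Cas9 (permutation, adjusted p = 0.0687, 28.9% of pairs fell).

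No departure from the effects of the single genes was detected in the number of tumours with both. Adding Kmt2b to Kmt2a changed the number by -1.14 ± 0.21 in H11-Cas9 (permutation, adjusted p = 0.000213), whereas adding Kmt2a to Kmt2b changed it by -0.23 ± 0.23 (permutation, adjusted p = 0.437). Against the product of the single genes, the interaction was -0.09 ± 0.25 in H11-Cas9 (permutation p = 0.713, adjusted p = 0.910) and 0.14 ± 0.32 in H11-LSL-Cas9 (permutation, adjusted p = 0.874). Interactions smaller than these errors can show were not detectable. In size the pair differed from inert/inert by 0.03 ± 0.10 in KT, by -0.10 ± 0.25 in H11-Cas9 and by -0.25 ± 0.22 in the H11-LSL-Cas9 mice. Of the 29 tumours with both genes in H11-LSL-Cas9 none reached 1000 cells (exact 95% upper limit 11.9%), and the largest had 820 cells. Its size interaction there, -0.98 ± 0.38 over 25 tumours in 11 mice (exact sign-flip permutation p = 0.0342, adjusted p = 0.592), did not pass, and that in H11-Cas9 was 0.51 ± 0.34. In H11-Cas9 4 of the 49 tumours had at least 1000 cells, 1 of them 54883 (replicate 21).

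Adding Kmt2b to other targeted genes lowered tumour number for nearly all partners in H11-Cas9. The step compares tumours of Kmt2b with a partner to those of that partner beside an inert guide, Cas9 against KT, and was tested for the 13 of 16 partners with at least 50 KT tumours of the pair. It passed as lower for 11 of 13, where 33.6% of the 256 ordered steps of all genes did (16% passed as higher and 49.6% in either direction) and the median step over all genes was -0.13. The median over these 13 was -1.01. Against inert/inert tumours all 13 pairs of Kmt2b fell in number in H11-Cas9, and of 14 pairs of Kmt2a 6 fell and 1 rose, where 60.9% of the 128 pairs of all genes fell and 13.3% rose. In H11-LSL-Cas9 5 of 13 pairs of Kmt2b fell, where 28.9% of all pairs did.

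Among growth regulators, Nf1 and Rasa1, which restrain RAS signalling, gave steps of -1.38 ± 0.14 and -1.04 ± 0.14 (both permutation, adjusted p = 8.83e-05). Per 100 Nf1 tumours KT mice held 7.82 to 14.9 tumours with Nf1 and Kmt2b (median 10.6) and H11-Cas9 mice 0 to 12.2 (median 4.26), and 41 of 45 H11-Cas9 mice lay below the lowest KT mouse. Per 100 Rasa1 tumours the values were 9.77 to 13.5 (median 10.5) and 0 to 15.2 (median 4.92), again with 41 of 45 below. Both ranges overlapped through the few remaining mice. For comparison, 21 of 45 H11-Cas9 mice lay below the lowest KT mouse for Kmt2a with Rnf43, a pair whose step was -0.01. Rb1 and p53, which restrain the cell cycle, gave -1.26 ± 0.19 and -1.01 ± 0.15 (permutation, adjusted p = 0.00112 and 0.00358). The cyclin L gene Ccnl2 gave -1.46 ± 0.28, the largest step of Kmt2b, on 25 tumours against 97 in KT (permutation, adjusted p = 0.00171).

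Rnf43 and Apc, which restrain WNT signalling, gave -0.99 ± 0.15 and -0.85 ± 0.20, Setd2, the methyltransferase for lysine 36 of histone H3, gave -0.96 ± 0.14, and Keap1, the adaptor that marks NRF2 for degradation, gave -0.81 ± 0.17 (permutation, adjusted p = 0.000269, 0.011, 0.00147 and 0.00149). The exceptions were the kinase gene Lkb1 (-0.41 ± 0.17, permutation, adjusted p = 0.089) and Pcna, the sliding clamp of DNA replication (0.01 ± 0.34). With Pcna, 18 tumours of the pair were left in H11-Cas9, against 411 in KT. For both the interaction with Kmt2b was positive without passing (0.63 ± 0.21 and 1.05 ± 0.37, permutation, both adjusted p = 0.336). No interaction in number passed for either paralog in H11-Cas9, where 0.781% of the 128 pairs passed in each direction. At an unadjusted p under 0.05 (permutation) there were 2 of 13 for Kmt2b, those with Lkb1 and Pcna. There were 0 of 14 for Kmt2a, and 16 of the 128 pairs of all genes. The lowest for Kmt2b were with Ccnl2 (-0.41 ± 0.29), Nf1 (-0.34 ± 0.16) and Rb1 (-0.21 ± 0.19). In H11-LSL-Cas9 0% of pairs passed, and 0 of either paralog did so unadjusted, where 9 of 128 pairs did.

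Untested for number were Kmt2b with Ccnl1 (46 tumours in KT and 19 in H11-Cas9), with Kat7 (46 and 14) and with Meaf6 (32 and 18). The calls for Kmt2b were fewer within a spike-in total, with 6 of 13 near 100000 cells and 4 of 13 in the LA mice near 300000. The 9 partners named here as lower, Kmt2a apart, all gave a value below 0 within each spike-in total, the one nearest 0 being -0.49 with Apc near 300000 cells.

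In H11-LSL-Cas9 all 13 steps of Kmt2b lay below 0, from -0.67 to -0.02 with a median of -0.39, and 1 passed, where 12.1% of steps of all genes passed as lower and 8.2% as higher. This was the step with Rasa1 (-0.67 ± 0.20, 62 tumours against 326 in KT, permutation, adjusted p = 0.0168), followed by Nf1 (-0.53 ± 0.17, permutation, adjusted p = 0.0579) and Lkb1 (-0.50 ± 0.26). The step with Rasa1 did not pass within the mice near 300000 cells (-0.61, permutation, adjusted p = 0.308).

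Adding Kmt2a gave few calls. In H11-Cas9 its 14 tested steps had a median of -0.00, 7 above and 7 below 0, and 2 passed as lower. These were with Nf1 (-0.47 ± 0.11, 271 tumours against 365 in KT, permutation, adjusted p = 0.00595) and p53 (-0.34 ± 0.10, 302 against 431, permutation, adjusted p = 0.0289). Setd2 lay between them (-0.35 ± 0.13) and did not pass (permutation, adjusted p = 0.103). Per 100 p53 tumours KT mice held 9.31 to 13 tumours with p53 and Kmt2a (median 11.2) and H11-Cas9 mice 2.60 to 19.2 (median 8.33). Of the latter 31 of 45 lay below the lowest KT mouse, where 21 of 45 did for Kmt2a with Rnf43 and with Lkb1. Those pairs had steps of -0.01 and 0.01. Neither call held within a spike-in total: Nf1 gave -0.60 near 100000 and -0.34 near 300000 cells, and p53 gave -0.47 and -0.22 (permutation, adjusted p from 0.0721 to 0.392). At the other end lay Kat7 (0.32 ± 0.31), Ccnl2 (0.24 ± 0.26) and Pcna (0.17 ± 0.35), none past the test. In H11-LSL-Cas9 0 of 14 steps of Kmt2a passed by the permutation test, adjusted or not, where 75 of 256 steps passed unadjusted. They ran from -0.27 with Nf1 to 0.32. Untested were Kmt2a with Ccnl1 (44 tumours in KT and 43 in H11-Cas9) and with Meaf6 (27 and 12).

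**Figure D4:**
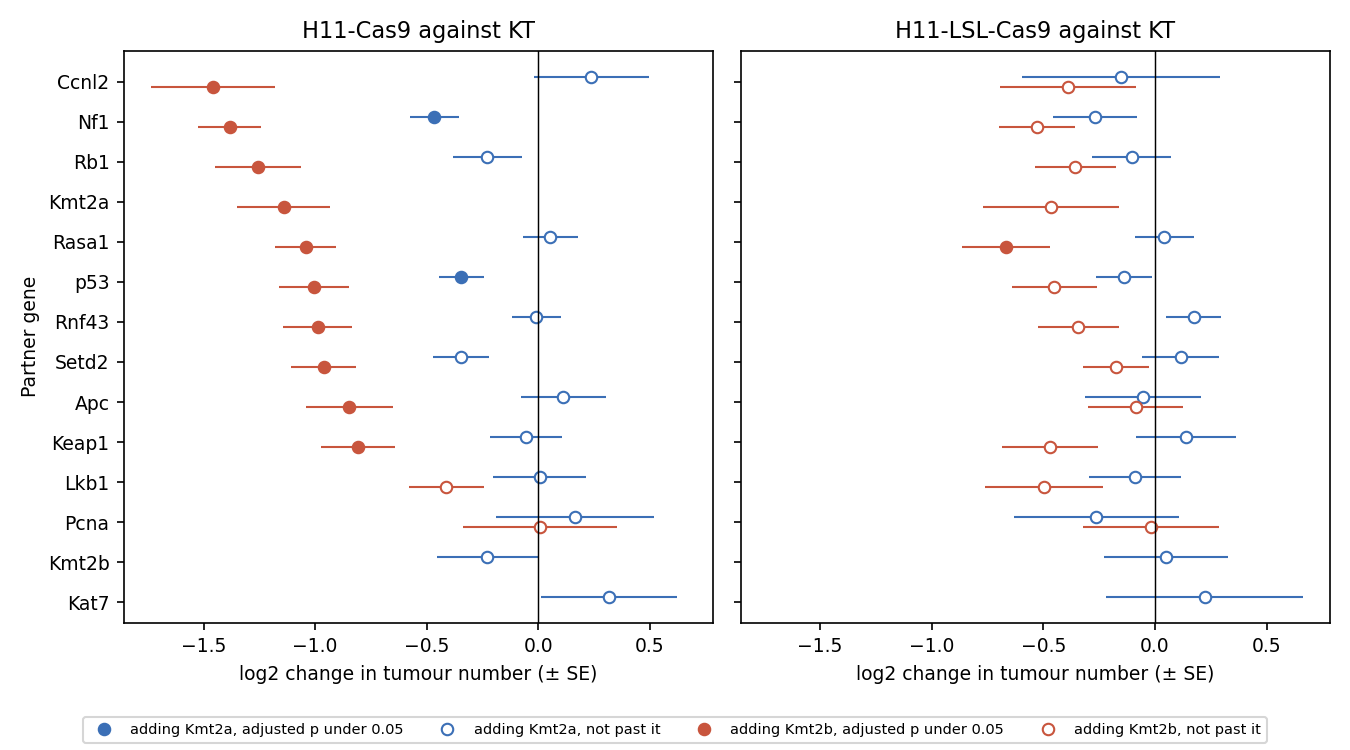
Change in tumour number when Kmt2a (blue) or Kmt2b (red) is added to a partner gene, as log2 of the pair over the partner beside an inert guide, Cas9 against KT mice, for H11-Cas9 (left) and H11-LSL-Cas9 (right). Bars are ± SE over mice, filled points have an adjusted p under 0.05, and all partners named in the text with at least 50 KT tumours of the pair are shown. In H11-Cas9 the Kmt2b points lie between -1.46 and 0.01, and the Kmt2a points between -0.47 and 0.32.

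With Kmt2b added, tumours of some partners were also smaller in H11-Cas9. This step in size is the mean log2 cells of the pair minus that of the partner beside an inert guide in the same mouse, each mouse weighted by its tumours of the pair. It passed as lower for 3 of 16 partners with Kmt2b and for 0 of 16 with Kmt2a, where 5.51% of the 272 steps of all genes passed as lower and 8.09% as higher. At an unadjusted p under 0.05 (sign-flip permutation) there were 5 of 16 for Kmt2b and 2 of 16 for Kmt2a, against 67 of the 272. Kmt2b with Nf1 tumours had a median of 135 cells against 199 for Nf1 alone, and the step was -0.61 ± 0.13 (135 tumours, below 0 in 35 of 44 mice, sign-flip permutation, adjusted p = 0.00286). Of these pairs 5.93% had at least 1000 cells, against 11.5% of Nf1 tumours. Kmt2b with Rasa1 tumours had a median of 133 cells against 185, and the step was -0.43 ± 0.14 (136 tumours, below 0 in 31 of 41 mice, sign-flip permutation, adjusted p = 0.0332). In KT mice, which lack Cas9, the same steps were 0.04 ± 0.08 and 0.02 ± 0.08. There 0% of the steps of all genes passed, but with 9 mice no sign-flip permutation p could be below 0.00391. After adjustment over 272 steps a call was hardly attainable in KT.

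Near 300000 cells both calls in size held (-0.77 and -0.52, sign-flip permutation, adjusted p = 0.00622 and 0.0287). They did not near 100000 cells (-0.43 and -0.32, adjusted p = 0.409 and 0.617), nor in the 14 LA mice near 300000 cells (-0.67 and -0.51, adjusted p = 0.129 and 0.226). Among tumours of at least 200 cells the steps were -0.44 and -0.14 and did not pass, and the step with Rasa1 was lost (adjusted p up to 0.0624) without H11-Cas9 replicate 7, 9, 10, 12, 13, 24, 25 or 33.

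Read against the sum of single effects, both pairs fell short in size. The interaction was -0.54 ± 0.18 with Nf1 (94 tumours in 28 mice, sign-flip permutation, adjusted p = 0.0467) and -0.53 ± 0.18 with Rasa1 (99 tumours in 26 mice, adjusted p = 0.0311). These were the 2 of 16 that passed for Kmt2b, where 16.9% of the 136 pairs of all genes passed as lower, so the share is near that of the panel. Neither held within a spike-in total (-0.51 and -0.55 with Nf1, -0.96 and -0.30 with Rasa1, near 100000 and 300000 cells). The call with Rasa1 was lost without H11-Cas9 replicate 14 or 33 (adjusted p up to 0.0558), and that with Nf1 without any 1 of 24 of the 45 mice, replicates 1, 3 to 9, 12, 13, 15 to 19, 22, 29, 31 to 33, 36 to 38 and 40 (values from -0.63 to -0.47, adjusted p up to 0.0782). In H11-LSL-Cas9 0% of 134 pairs passed. Unadjusted (sign-flip permutation), 4 of 16 of Kmt2b and 1 of 15 of Kmt2a were under 0.05, where 10 of the 134 pairs were. Among them was Kmt2b with Nf1 (-0.66 ± 0.26, exact p = 0.0354, adjusted p = 0.592).

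With Nf1 and Rasa1, Kmt2a lay on the same side of 0 without passing. Its steps in size were -0.22 ± 0.09 and -0.20 ± 0.08 (sign-flip permutation, adjusted p = 0.0988 and 0.129), and its interactions -0.35 ± 0.14 and -0.29 ± 0.12 (both adjusted p = 0.0842). Whether the steps of Kmt2b and Kmt2a with these partners differ was not tested. Kmt2a with Nf1 and with Rb1, though, were larger than inert/inert tumours (0.22 ± 0.08 and 0.38 ± 0.13, sign-flip permutation, adjusted p = 0.0391 and 0.0197), 2 of 3 pairs of Kmt2a that passed as larger where 31.6% of 136 pairs did. No pair with Kmt2b was larger, and 1 was smaller, that with Pcna (-0.71 ± 0.18, 18 tumours, sign-flip permutation, adjusted p = 0.0197, 2.94% of pairs smaller). These partners passed in the same directions beside an inert guide in H11-Cas9. Nf1 lay at 0.43 ± 0.06, Rb1 at 0.15 ± 0.05 and Pcna at -0.43 ± 0.16 (sign-flip permutation, adjusted p = 4.25e-05, 0.00714 and 0.0374). In H11-LSL-Cas9 0 of 16 pairs of either paralog passed (sign-flip permutation, 1 each unadjusted), where 4.41% of 136 pairs passed as larger and 7.35% in either direction. Unadjusted, 29 of the 136 pairs passed.

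The remaining steps of Kmt2b in H11-Cas9, that with Meaf6 apart, lay between -0.56 with Kat7 and 0.15 with Keap1. Next to Keap1 stood Lkb1 (0.05) and Ccnl2 (-0.00). The step with Meaf6 (-1.56 ± 0.18) rests on 9 tumours in 7 mice, all below 0 (exact sign-flip permutation p = 0.0156, adjusted p = 0.0944). That p is the smallest attainable with 7 mice. Steps of Kmt2a in H11-Cas9 ran from -0.70 ± 0.81 with Meaf6, on 4 tumours, through Kat7 (-0.30) and Ccnl1 (-0.26). At the upper end were Apc (0.16), Rb1 (0.23 ± 0.11) and Kmt2b (0.48 ± 0.36). In H11-LSL-Cas9 0 of 16 steps in size passed for either paralog (sign-flip permutation, 2 of Kmt2a and 0 of Kmt2b unadjusted), where 0.37% of 270 steps passed as lower, 1.85% as higher and 2.22% in either direction. Unadjusted, 40 of the 270 steps passed. Kmt2b with Nf1 lay at -0.29 ± 0.18 there and Kmt2b with Rasa1 at 0.30 ± 0.21.

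**Figure D5:**
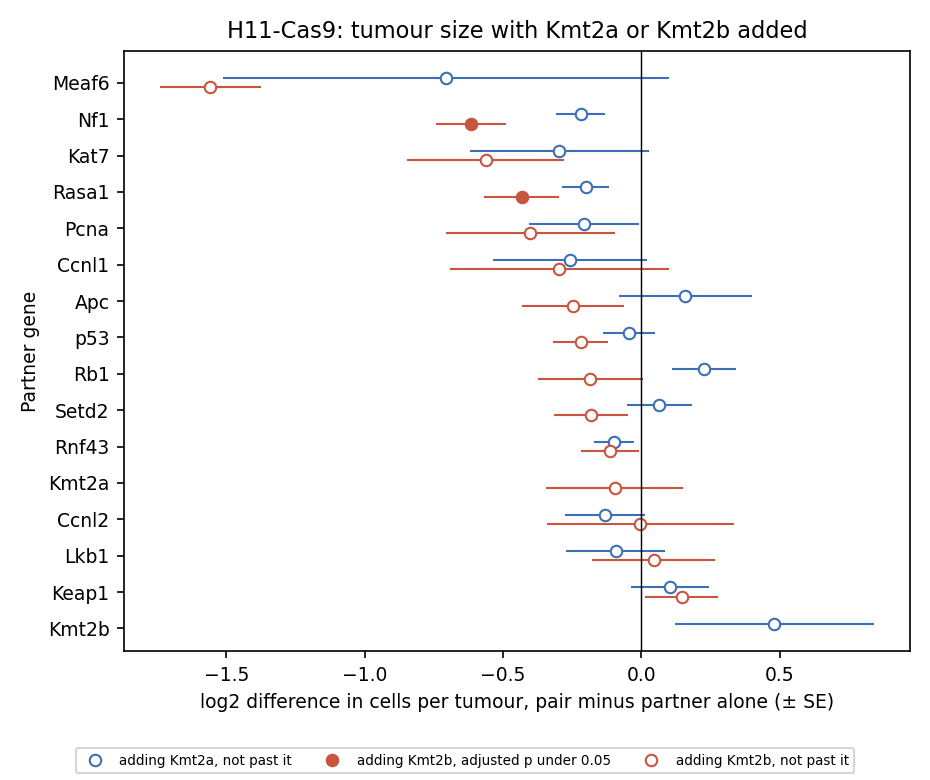
Difference in mean log2 cells per tumour between pairs and the partner beside an inert guide, within mouse, when Kmt2a (blue) or Kmt2b (red) is added, in H11-Cas9 mice. Bars are ± SE over mice and filled points have an adjusted p under 0.05, which those of Kmt2b with Nf1 (-0.61) and Rasa1 (-0.43) do. Meaf6, Kat7 and Pcna rest on 4 to 23 tumours, and Kmt2b with Ccnl1 and with Ccnl2 on 17 and 25.

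Kmt2a and Kmt2b stand in the panel beside 3 other genes of histone modification, Setd2 and the subunits Kat7 and Meaf6 of histone acetyltransferase complexes. Beside an inert guide, 4 of these 5 fell in number in H11-Cas9, all but Kmt2a, where 47.1% of all 17 genes fell, with a median of -0.55 against -0.15 over the 17. Kat7 lay at -0.55 ± 0.14, Meaf6 at -0.56 ± 0.15 and Setd2 at -0.32 ± 0.05 (permutation, adjusted p = 0.01, 0.01 and 0.00359). In H11-LSL-Cas9 1 of 5 fell, which was Kmt2b, where 29.4% of the 17 did. In size 1 of 5 rose in H11-Cas9, Setd2 (0.22 ± 0.05, sign-flip permutation, adjusted p = 0.000272), where 64.7% of the 17 rose. By the distance over 4 values, the size and number effects in both Cas9 groups, the genes most like Kmt2a were Ccnl2 (0.157), Rnf43 (0.183) and Ccnl1 (0.214), and those most like Kmt2b were Keap1 (0.455), Lkb1 (0.577) and Apc (0.640). Kmt2a and Kmt2b were 1.09 apart, so each was nearer to several other genes than to its paralog.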

How the data were processed

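The deposited table lists for each tumour its mouse, guides, read counts and a signal, the cell number, which the authors scaled with spike-in barcodes. In the values, cells were reads times 1 factor per mouse. Aligner and build: not given in the sources used here. Per the labels, 32 µg of lung DNA were amplified.

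Number was log2 of summed tumours of a genotype over summed reference tumours, 0.5 added to each, Cas9 minus KT mice, tested with 100000 studentised permutations of mouse labels. Sizes within mice were tested by sign flips over mice, enumerated in full up to 16 mice. Tests were 2-sided, with Benjamini-Hochberg adjustment over all genotypes of a kind and calls under 0.05. Named were partners past that threshold and, where fewer than 3 were, the 3 highest and 3 lowest steps in H11-Cas9. Scripts were run in Python 3.11.15 with scipy 1.17.1, numpy 2.4.6 and pandas 2.3.3, and plots were made by matplotlib 3.10.9. Only the fits of number and size for single genes beside an inert guide were tested on simulated data.

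Members, lists, tests and alternatives were chosen with earlier results of these data known. Replicates are mice, numbered by accession. Gene names matched RefSeq (GRCm38.p6) for 17 of 17, Lkb1 as Stk11 and p53 as Trp53. Some results are not reported here, but counts include them.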

Additional observations from a re-analysis of the deposited data

Results flagged for a closer look

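The share of all tumours with a Kmt2b guide differed between the Cas9 groups: it was 0.48 ± 0.07 log2 units higher in H11-LSL-Cas9 (2.09% of summed tumours, 20 mice) than in H11-Cas9 (1.498%, 45 mice; permutation, adjusted p = 1.55e-05 over 17 genes). Mouse-name letters, spike-in total and Cas9 allele move together here, and their part in the difference was not tested beyond the 0.35 ± 0.08 found among mice near 300000 cells.

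In KT mice, which have no Cas9, 1 mouse stood apart from the other 8 in each of 2 values. The size of Kmt2a tumours against inert/inert was -0.56 in KT replicate 7, where the next lowest mouse was at 0.03. Tumours with both genes were 17.4 per 100 inert/inert tumours in KT replicate 1, where the next highest mouse had 12. Chance gives about 1 such mouse in 20 groups, and 6 values were examined. These are not independent, since each uses the inert/inert tumours of the mouse. Replicate 7 was also the lowest KT mouse for the size of Kmt2b tumours (-0.70). Replicate 1 held the fewest inert/inert tumours of the KT mice (86). It also had the most Kmt2a (52.3) and Kmt2b (60.5) tumours per 100 of them.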

How the results depend on the processing

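Over 344 values under alternative settings, 272 kept direction and call, 39 changed sign, 9 lost a call, 4 gained one and 20 counts of calls moved by over 1.5 times; the cause was not tested. The fall of the Kmt2b share in H11-Cas9 kept its call under all alternatives run. Of 98 values for named partners, 48 lost the call and 0 changed sign. Few Cas9 tumours per genotype limit all values beside an inert guide. No paired analysis was possible because the labels give no replicate numbers that pair mice of different groups; within a mouse, sizes of genotypes were compared as pairs throughout.

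Number beside an inert guide. Kmt2b in H11-LSL-Cas9 lay at -0.48 (at least 200 cells), -0.22 (500), 0.68 (1000), -0.37 (place 2 only), -0.57 (near 300000) and -0.51 (same-guide constructs kept). In H11-Cas9 it lay at -0.84 (500) and -0.55 (1000). Kmt2a in H11-LSL-Cas9 gave 0.10 with NE as inert, 0.10 against all tumours, 0.27 (500), 1.07 (1000), 0.041 (place 2) and 0.00376 (same-guide), and in H11-Cas9 0.26 against all tumours and 0.0083 in LA mice near 300000. Kmt2b over Kmt2a in H11-Cas9 was -0.79 near 300000 (permutation, adjusted p = 0.119). H11-LSL-Cas9 minus H11-Cas9 for Kmt2b, 0.44 over all tumours (permutation, adjusted p = 0.0669), was 0.82 at 200 cells (permutation, adjusted p = 0.0412) and -0.020 for Kmt2a near 300000.

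Share of all tumours. Kmt2a in H11-Cas9 was -0.020, -0.17 and -0.28 from 200, 500 and 1000 cells, and Kmt2b in H11-LSL-Cas9 -0.45 from 1000.

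Size beside an inert guide. Kmt2b in H11-Cas9 was 0.63 (200 cells), 0.27 (near 100000), 0.049 (same-guide), 0.13 (NE as inert), 0.011 (mice weighted by tumours) and -0.83 (largest tumours matched to KT numbers, a call), and -0.064 to 0.036 leaving out 1 mouse. In H11-LSL-Cas9 matching gave -0.44. In KT it was -0.045 (90th percentile), -0.022 (NE), -0.039 (1000), -0.00532 (place 2), and -0.062 near 300000 and in the LA mice there. Kmt2a in H11-Cas9 was -0.12 (90th percentile), -0.14 (matched), -0.051 (minus KT) and 0.16 (same-guide; permutation, adjusted p = 0.0462), and in H11-LSL-Cas9 -0.14 (matched), -0.22 (place 2) and -0.020 (minus KT). Kmt2b minus Kmt2a was 0.52 (200), 0.17 (near 100000) and -0.42 (LA; permutation, adjusted p = 0.0466) in H11-Cas9, -0.46 (200) in H11-LSL-Cas9 and 0.073 (near 100000) in KT. Between Cas9 groups Kmt2b, 0.39 over all tumours (permutation, adjusted p = 0.147), was -0.44 at 200 (permutation, adjusted p = 0.990). The pair of both was 0.54 (200) and 0.30 (near 100000) in H11-Cas9, and -0.00971 in KT near 100000.

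Counts of lower calls. Number steps of Kmt2a in H11-Cas9 were 1 (200), and 0 near 100000, near 300000 and in LA mice. Those of Kmt2b were 6 near 100000 and 4 in LA mice, and in H11-LSL-Cas9 0 (200) and 0 near 300000. Size steps of Kmt2b in H11-Cas9 were 0 (200), 0 near 100000, 0 in LA mice and 1 by a plain mean over mice; those of Kmt2a were 0 to 1 leaving out 1 mouse. Size interactions of Kmt2b were 0 (200), 0 near 100000, 0 near 300000, 0 in LA mice, 0 by a plain mean and 4 (same-guide), with 0 to 3 leaving out 1 mouse; those of Kmt2a were 1 (200) and 2 (same-guide), with 0 to 2 leaving out 1 mouse. Leaving out 1 mouse, the fall of Kmt2b number kept its call (H11-Cas9 from -1.09 to -1.01, H11-LSL-Cas9 from -0.68 to -0.50). No H11-LSL-Cas9 mouse lay near 100000, so that setting was not run there, and matching to KT numbers has no value in KT.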
